A study of Drosophila melanogaster with 4 samples.

Results

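The regions described here are the Su(var)3-7 clusters of 3L, the left arm of chromosome 3 of Drosophila melanogaster, outside the 3 Mb next to the centromere. They are the entries of the replicate-set list on 3L that start at or before base 21543557 of FlyBase release 5, and were chosen by position alone. There were 1600 of 11476 entries, made up of 1599 clusters marked as enriched and 1 region marked as depleted. The enriched ones are called members below and made up 13.9% of the 11471 enriched clusters of the list. The same limit took in 668 clusters of replicate 1 (of 5994) and 613 of replicate 2 (of 5617).

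Chromatin from nuclei of wild-type Oregon-R larvae in the third instar was crosslinked, sheared and immunoprecipitated with antibody Q3448 against Su(var)3-7, and the DNA was sequenced (ChIP-seq). The study had 4 libraries, with 2 of immunoprecipitated chromatin and 2 of input chromatin, and each input library was the control of the ChIP library of its own number. All 4 were from the same strain, genotype and stage, and from larval tissues with no cell type named, so cell types cannot be told apart. Separate cultures or collections of larvae are not named for the replicates, so the spread between them may be technical.

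Su(var)3-7 is a protein with many zinc fingers that binds DNA and associates with heterochromatin protein 1 (HP1). Loss of a copy of its gene weakens, and an added copy strengthens, the silencing of genes placed next to heterochromatin, and the protein is known chiefly from the heterochromatin around the centromeres, from chromosome 4 and from telomeres. The euchromatic arm is the gene-rich stretch between the telomere and that pericentric heterochromatin. Weaker staining at sites within the arms of polytene chromosomes is also known.

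The euchromatic arm of 3L was sparsely covered, by many narrow clusters of low enrichment. Clusters of replicate 1 covered 7.60% of its 21.5 Mb (1.64 Mb) and those of replicate 2 covered 6.28% (1.35 Mb), a mean of 6.94% ± 0.93 (SD, n = 2). In the adjoining proximal 3 Mb of the same arm the values were 48.98% and 47.1%. The proximal stretch was thus 6.97-fold ± 0.75 (SD, n = 2) more covered, and both replicates exceeded 6-fold. With 2 replicates the smallest two-sided exact p is 0.5, so no difference in cover was tested, and each is given with the value of both replicates.

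The enrichment of a cluster is the authors' own value and was read as log2 of ChIP over input. The median log2 enrichment of clusters in the arm was 0.60 in replicate 1 and 0.61 in replicate 2, against 0.85 and 0.91 in the proximal 3 Mb. The median width was 1930 bp in replicate 1 and 1915 bp in replicate 2, against 2761 and 3098 bp. In the replicate-set list the members had a median log2 value of 0.42 (quartiles 0.37 and 0.48) and a median width of 1664 bp (quartiles 1224 and 2387 bp). Together they covered 16.3% of the arm. Only 31 members (1.94%) had a log2 value of 1 or more, where 15.3% of all enriched clusters of the list did. Only 15 (0.94%) spanned 10 kb or more, where 3.75% of all did. Strong and wide clusters were thus scarcer in the arm than in the whole list, which also holds the proximal stretches. This was shared with the other arms outside their proximal stretches. The share at a log2 value of 1 or more was 1.79% on 2L, 2.30% on 3R and 4.05% on X. The share of 10 kb or more was 0.60%, 0.33% and 1.10%, so 3L lay above 2L and 3R in wide clusters. The lists hold no read counts, so the depth behind the values is unknown.

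Cover was not even along the arm. In 1 Mb windows counted from the distal end it ran from 1.59% in replicate 1 and 1.70% in replicate 2, in the window from 10 to 11 Mb, to 22.8% and 14.4% in the last, shorter window from 21 to 21.5 Mb. Of the 22 windows, 8 lay above the cover of the whole arm in both replicates. They were the first and second, the window from 8 to 9 Mb, those from 16 to 18 Mb and those from 19 Mb to the limit. Across the 22 windows Pearson's r between the replicates was 0.97 and Spearman's rho 0.99. This is a description over windows, which share the same libraries.

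**Figure D1:**
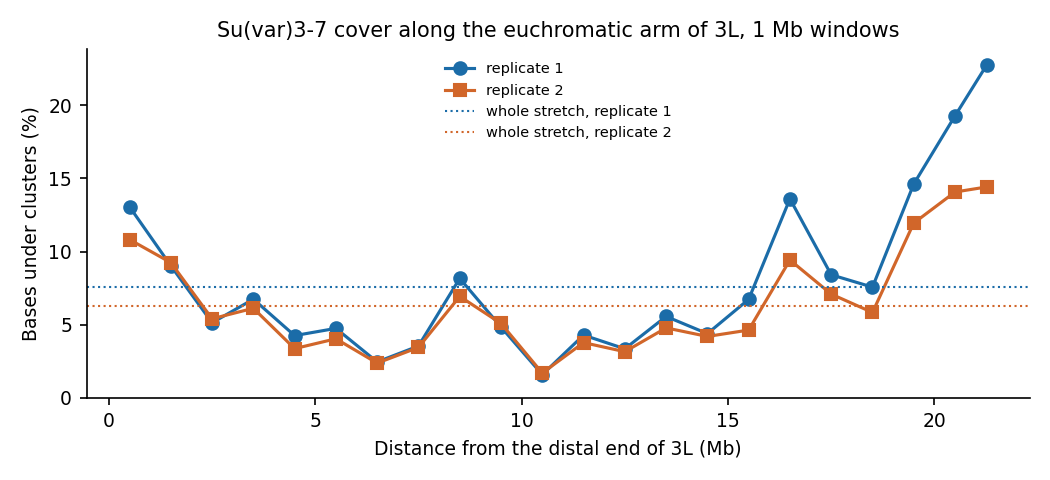
Percent of bases under Su(var)3-7 clusters (y axis) in 1 Mb windows against distance from the distal end of 3L in Mb (x axis), for replicates 1 and 2, with the cover of the whole stretch as dotted lines. Cover was high in the first 2 Mb, lowest between 10 and 11 Mb, and rose from 19 Mb to 22.8% and 14.4% in the last window.

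The stretches on either side of these windows were named after the values had been seen and carry no test. The distal 2 Mb were 11.05% covered in replicate 1 and 10.04% in replicate 2. The 14 Mb that follow, from 2 to 16 Mb, were 4.70% and 4.22% covered. They made up 65.0% of the length of the arm but held 40.2% of the covered bases in replicate 1 and 43.6% in replicate 2. From 16 to 18 Mb cover was 11.01% and 8.26%. From 19 Mb to the limit it was 18.2% and 13.3%, and this 11.8% of the length held 28.3% of the covered bases in replicate 1 and 25.03% in replicate 2.

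The 1 Mb before the limit was 2.95 times as covered as the rest of the arm in replicate 1 and 2.33 times in replicate 2 (mean 2.64 ± 0.44, SD, n = 2). The first 1 Mb was 1.78 and 1.79 times as covered as the rest (1.78 ± 0.004, SD, n = 2). The arm as drawn by position therefore held a proximal part with more clusters than its middle, and the name euchromatic rests here on the limit of 3 Mb and on no measurement. Replicate 1 had more cover than replicate 2 in 18 of the 22 windows. The ratio of replicate 1 to replicate 2 ran between 0.94 and 1.26 in the first 15 windows, and reached 1.45 from 15 to 16 Mb, 1.44 from 16 to 17 Mb, 1.37 from 20 to 21 Mb and 1.58 in the last window. Both replicates rose toward the limit, and they differed most in the height of that rise.

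The number of members differed between windows, and their median log2 value stayed in a narrow range. A count and a log2 value are on unlike scales, so their changes were not compared. The full windows held between 35 and 119 members, and over the 21 full windows Spearman's rho between the number of members and the mean cover was 0.86. Members and cover come from the same libraries, so they are not independent and the rho only describes the lists. The median log2 value per window stayed between 0.40 and 0.44. Among members found in both replicates, most of the strong and most of the wide lay toward opposite ends of the arm, though 4 were both. A member is called found in a replicate where a cluster of that replicate overlapped it by at least 1 bp, which held in both replicates for 357 members (22.3%), against 30.7% of all enriched clusters of the list. Of the 17 members found in both replicates with a log2 value of 1 or more, 11 lay in the first 6 Mb and 2 in the 3.54 Mb from 18 Mb to the limit. Of the 15 members of 10 kb or more, 3 lay in the first 6 Mb and 9 from 18 Mb on. The medians of all members found in both replicates differed little between these stretches, at log2 values of 0.56 for 97 members and 0.55 for 104, and widths of 3325 and 3678 bp. The pattern therefore concerned the extremes, was noticed in the data and was not tested.

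**Figure D2:**
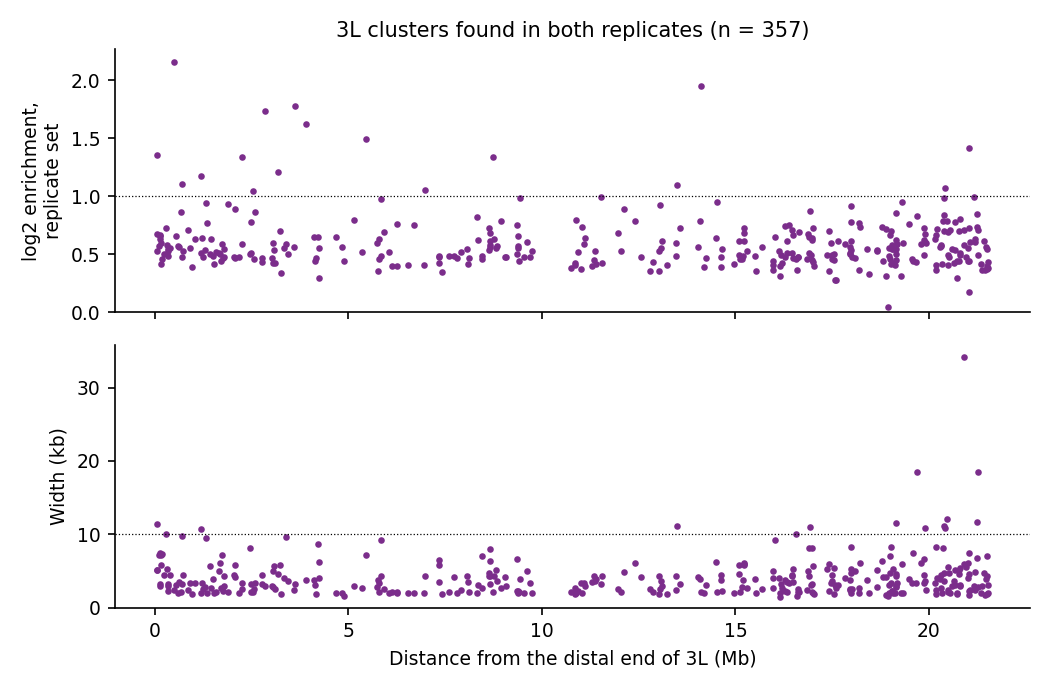
Replicate-set log2 enrichment (upper panel) and width in kb (lower panel) of the 357 members found in both replicates against distance from the distal end of 3L in Mb, with dotted lines at a log2 value of 1 and at 10 kb. Of the 17 points on or above the upper line, 11 lie in the first 6 Mb, and of the 15 above the lower line, 9 lie from 18 Mb on.

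The strongest site found in both replicates was 3L:504872-507299, about 0.5 Mb from the distal end. It was 2.43 kb wide with a log2 value of 2.16 in the replicate set, 1.91 in replicate 1 and 2.41 in replicate 2. Replicate clusters covered 97.98% and 99.96% of it, so its borders were nearly the same in both. The next was 3L:14103652-14105795, 2.14 kb wide, with 1.95 in the set, 1.48 in replicate 1 and 2.38 in replicate 2. It stood nearly alone in the middle of the arm, where the next highest member found in both replicates from 9 to 18 Mb was 3L:13484248-13495455 at 1.10.

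A run of strong sites lay between 2 and 6 Mb. 3L:3614428-3617660 had a log2 value of 1.78 in the set and 2.40 in replicate 2, and was divided in replicate 1 into clusters of 0.62 and 1.78. 3L:2850082-2853078 had 1.73 in the set, 1.42 in replicate 1 and 2.35 in replicate 2. 3L:3898928-3902677 had 1.63 in the set and, unlike these, was higher in replicate 1 (1.87) than in replicate 2 (1.47). 3L:5452760-5459951 was the widest of the run at 7.19 kb, with 1.49 in the set, and was divided into 2 clusters in each replicate that covered 58.01% and 53.3% of it. 3L:2243081-2245670 followed with 1.34 (1.26 in replicate 1 and 1.62 in replicate 2), and 3L:3193005-3197579 with 1.21 (1.08 and 1.54).

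The remaining 4 of the 12 highest were spread over the arm. 3L:21041742-21044016 was the highest found in both replicates from 18 Mb on, at 1.42 in the set, 1.38 in replicate 1 and 1.53 in replicate 2. 3L:64598-75962, near the telomere, was both strong and wide, with 1.35 over 11.4 kb, and its values were 1.57 in replicate 1 and 1.18 in replicate 2. 3L:8741105-8743206 had 1.34 in the set but 0.84 in replicate 1 against 1.81 in replicate 2. 3L:1202831-1213574 had 1.17 over 10.7 kb, with 1.48 in replicate 1 and clusters from 0.47 to 1.91 in replicate 2. Of the 12, 9 were narrower than 5 kb and 9 were higher in replicate 2 by their highest cluster, and at several of them the gap between replicates exceeded the steps between neighbours in this order.

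Elsewhere the highest supported sites were weaker. Taken in successive 3 Mb, the highest from 9 to 12 Mb was 3L:11515546-11518770 at 0.99 (0.88 in replicate 1 and 1.26 in replicate 2). From 15 to 18 Mb it was 3L:17980346-17982423 at 0.92 (0.63 and 1.16), although this stretch held 263 members. From 18 to 21 Mb it was 3L:20408522-20419351 at 1.07 (1.18 and 1.12), which spanned 10.8 kb.

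The 5 widest members lay between bases 19683263 and 21282870 and were found in both replicates. The widest, 3L:20914534-20948742, spanned 34.2 kb at a log2 value of 0.71. It was broken into 4 clusters in replicate 1 with values of 0.73 to 0.93 and into 8 in replicate 2 with values of 0.53 to 0.80, which covered 88.4% and 72.6% of it. 3L:19683263-19701719 spanned 18.5 kb at 0.83 and was 85.7% and 83.4% covered. 3L:21264421-21282870 spanned 18.45 kb at 0.71 and was 90.1% covered in replicate 1 but 58.3% in replicate 2. 3L:20465520-20477624 (12.1 kb at 0.79) and 3L:21243433-21255174 (11.7 kb at 0.85) completed the 5. Over their whole spans these 5 thus had set values from 0.71 to 0.85, and most were divided differently in the 2 replicates. Single clusters within them could be higher. In replicates 1 and 2 the highest were 1.19 and 1.17 in the second of the 5 and 0.97 and 1.09 in the third. They were 1.19 and 1.20 in the fourth and 1.02 and 1.07 in the last. In the whole arm 4 members were both 10 kb wide and at a log2 value of 1 or more.

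At the ends of the stretch the most distal member was 3L:52317-57438, with a log2 value of 0.52, 0.50 in replicate 1 and 0.65 in replicate 2. The last 2 members inside the limit were 3L:21529999-21531996, at 0.39 and found in both replicates (0.38 and 0.58), and 3L:21543275-21544448, at 0.42 and found in neither. The first 2 clusters outside it were 3L:21547018-21548089, at 0.31 and found in neither, and 3L:21548697-21554584, 5.89 kb wide at 0.88 (0.89 in replicate 1 and 0.98 in replicate 2). Each side of the limit thus had 1 cluster found in both replicates and 1 found in neither, and the highest value of the 4 lay outside it.

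Members lay close to each other. The median gap between neighbours was 3.39 kb (quartiles 1.03 and 10.8 kb), and 388 of 1598 gaps were shorter than 1 kb. Joining members with gaps of up to 10 kb gave 428 groups, of which 154 held 1 member and 33 held 10 or more. Those 33 groups held 512 members (32.0%), of which 150 (29.3%) were found in both replicates, as were 38 of the 154 that stood alone (24.7%) and 169 of the 933 in groups of 2 to 9 (18.1%), against 22.3% of all members. Support thus did not rise steadily with the size of a group. The 3 groups with most members were 3L:16849219-17039714 with 33 over 190.5 kb, 3L:20341288-20522715 with 32 over 181.4 kb and 3L:20904533-21100914 with 31 over 196.4 kb. In replicates 1 and 2, clusters covered 31.8% and 22.7% of the first, 36.8% and 30.8% of the second, and 37.2% and 25.9% of the third of these groups.

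Other groups were crowded in the replicate-set list with little cover in a replicate. 3L:16091857-16174671 held 21 members over 82.8 kb, of which 4 were found in both replicates, and was 18.5% covered in replicate 1 and 7.76% in replicate 2. 3L:1535398-1607291 held 14 members, of which 1 was found in both, and was 2.63% and 9.37% covered. At the other extreme 22 gaps exceeded 100 kb. The longest, 3L:9964005-10323121 (359.1 kb) and 3L:10352657-10636970 (284.3 kb), contained no cluster of either replicate. Both fell in a stretch of 993.4 kb, from 9756448 to 10749877, that held 20 members but none found in both replicates.

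Support by replicate was then read for each member, as an overlap of at least 1 bp. Of the 1599 members, 357 (22.3%) overlapped clusters of both replicates, 261 (16.3%) of replicate 1 alone, 177 (11.07%) of replicate 2 alone and 804 (50.3%) of neither. Over the whole list 30.7% of enriched clusters were found in both and 44.1% in neither. Since the replicate set drew on these very libraries, the shares only describe the list. In the other direction, 659 of the 668 replicate 1 clusters (98.7%) and 601 of the 613 replicate 2 clusters (98.04%) met a member. The 9 and 12 clusters left out had median log2 values of 0.56 and 0.51. Their values ran from 0.18 to 0.71 in replicate 1 and from 0.33 to 1.56 in replicate 2.

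Members found in both replicates were wider and more enriched than the rest, and held 42.4% of the bases of all members. Their median width was 3369 bp and their median log2 value 0.54. For members found in 1 replicate these were 1889 bp and 0.40, and for those found in neither 1249 bp and 0.40. Of the 357, 287 had a single cluster in each replicate, and 70 were divided in at least 1 of them. The median member of the 357 was 84.3% covered by clusters of replicate 1 and 73.5% by those of replicate 2.

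**Figure D3:**
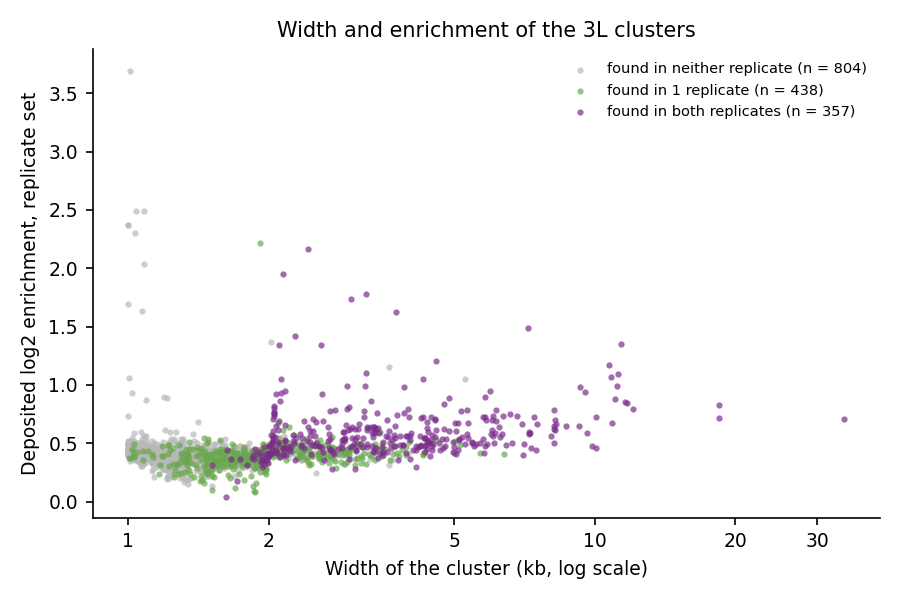
Replicate-set log2 enrichment (y axis) against width in kb on a log scale (x axis) for the 1599 members, coloured by whether clusters of both replicates, 1 replicate or neither overlapped them. Members found in neither crowd at widths under 2 kb, and the few of them with log2 values above 2 are about 1 kb wide.

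Under the 1 bp rule the share found in both replicates rose with each width class. None of the 488 members of at most 1300 bp was found in both replicates and 92.6% were found in neither. No replicate cluster was narrower than 1301 bp, whereas the replicate set went down to 1001 bp. The share found in both was 4.92% of 549 members from 1301 to 2000 bp, 40.7% of 290 up to 3 kb, 69.6% of 181 up to 5 kb, 93.4% of 76 up to 10 kb, and all 15 above that. Stricter rules, added once these values were known, lowered it mainly in wide members. With 50% of the member covered in each replicate it was 37.2% from 2 to 3 kb, 42.0% up to 5 kb, 59.2% up to 10 kb and 80.0% above. With the midpoint of the member inside a cluster of each it was 38.6%, 54.7%, 55.3% and 66.7%. The order of the classes was kept under all 3 rules, and the rise above 3 kb was smaller under the stricter ones. Of the 804 members found in neither, 452 (56.2%) were narrower than the narrowest replicate cluster and 352 were not.

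**Figure D4:**
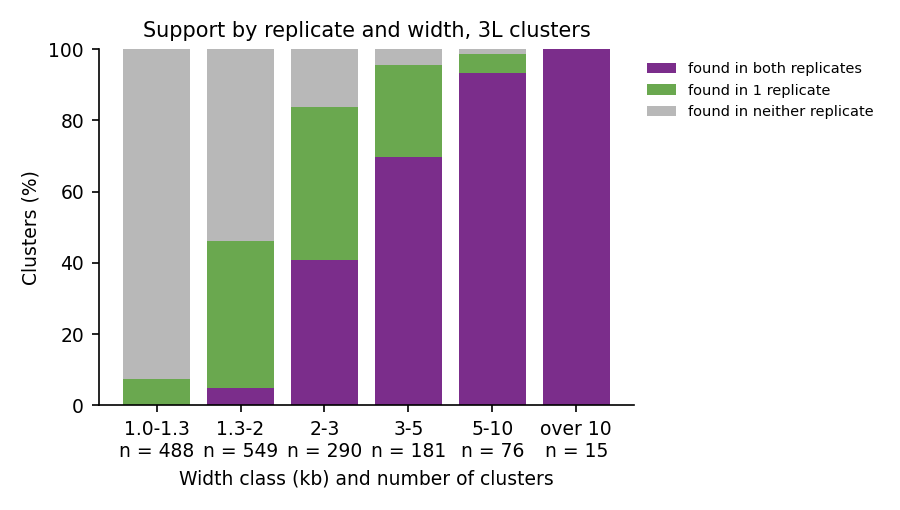
Percent of members (y axis) found in both replicates, 1 replicate or neither, under the 1 bp rule, by width class in kb (x axis, with the number of members). The share found in both climbs from 0 of 488 in the narrowest class to all 15 in the widest.

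Support followed enrichment less simply. It was 4.01% of 299 members with log2 values below 0.35, 16.1% of 653 from 0.4 to 0.5, 65.9% of 214 from 0.5 to 0.7 and 92.2% of 64 from 0.7 to 1. Among the 31 members at 1 or more it was lower again, at 54.8%. Those 31 comprised 17 found in both replicates, 1 found in replicate 2 alone and 13 found in neither. With members divided at both medians, 62.8% of the 486 wide members of high value were found in both, 15.6% of the 314 wide members of low value, and 0.32% of the 314 narrow members of high value. At these settings a high value without width came with little support.

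The 3 highest members found in neither replicate also had the highest log2 values of the arm. They were 3L:19110202-19111208 at 3.69, and 3L:5110700-5111739 and 3L:14718791-14719869 at 2.49 each, and were 1007, 1040 and 1079 bp wide. Their values recurred in the list, the first at 4 clusters and the other at 10. Of the 13 members at 1 or more found in neither replicate, 10 had a value shared by 3 or more clusters of the list, against none of the 17 found in both. Over all members 418 (26.1%) had such a value, of which 18 were found in both. The number of reads behind these values is unknown, and the part it played was not tested.

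The replicates were compared directly on the arm. Of the bases covered in either, 41.6% were covered in both, against 75.4% in the proximal 3 Mb of 3L. Outside the proximal stretches of 2L, 3R and X this share was 41.6%, 39.4% and 42.7%, much as on 3L. On the arm of 3L the shared bases were 53.7% of the bases of replicate 1 and 64.9% of those of replicate 2. By number, 381 replicate 1 clusters (57.04%) met at least 1 cluster of the other replicate, as did 409 replicate 2 clusters (66.7%). Shared clusters of replicate 1 were wider, with a median of 2227 bp against 1551 bp for the others, and higher, with a median log2 value of 0.65 against 0.55. In replicate 2 these were 2051 bp and 0.63 against 1568 bp and 0.58.

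For the 322 clusters that overlapped one to one, the median difference in log2 value (replicate 2 minus replicate 1) was -0.003, with an SD of 0.23 over the 322. Replicate 2 was higher in 157 of them, so neither replicate was generally stronger. The values lay within 0.2 of each other in 236 (73.3%) and more than 0.5 apart in 17. Across these clusters Pearson's r was 0.69 and Spearman's rho 0.47, and r was 0.66 without the 2 farthest from the median of replicate 1. Among the 50 with the highest mean value, replicate 2 was higher in 33. The 3 largest differences were at 3L:8741105-8743206 (0.97), 3L:2850082-2853078 (0.93) and 3L:14103652-14105795 (0.90), described above, all higher in replicate 2.

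**Figure D5:**
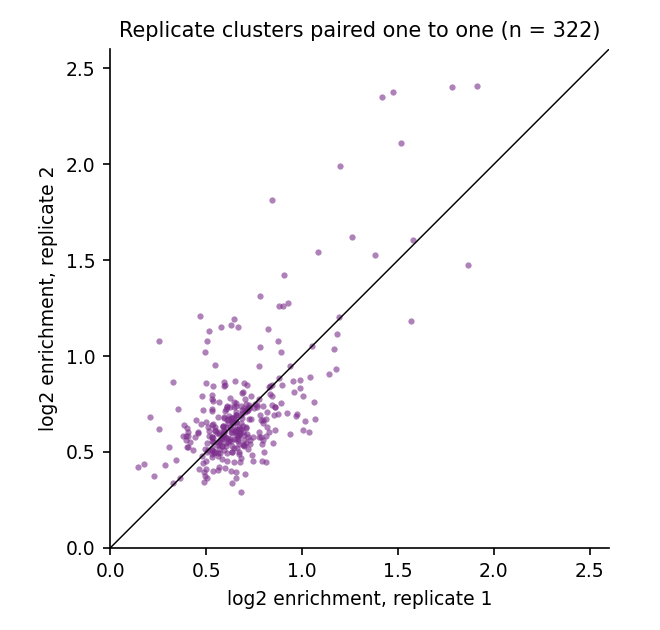
Log2 enrichment in replicate 2 (y axis) against replicate 1 (x axis) for 322 clusters of the euchromatic arm of 3L that overlapped one to one, with the line of equal values. Most points lie below 1 around the line, and the 3 farthest from it lie above it.

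With the limit at 3 Mb, 3L was more covered as a whole than the same stretches of the most similar arms, 2L and 3R. No ratio between arms was recomputed with the limit moved, so how far it depends on the limit is unknown. The median full window was more covered on 3L than on 2L in both replicates. In the replicate-set list it was slightly less covered, at 12.59% on 3L and 12.80% on 2L. On 3R the median full window was less covered than on 3L in each list. The 2L stretch was 6.51% covered in replicate 1 and 5.56% in replicate 2, and the 3R stretch 5.67% and 4.85%. The ratio of 3L to 2L was 1.17 in replicate 1 and 1.13 in replicate 2 (1.15 ± 0.03, SD, n = 2), and that of 3L to 3R 1.34 and 1.296 (1.32 ± 0.03, SD, n = 2). The excess came with more clusters per Mb, at 31.0 and 28.5 on 3L, 27.3 and 24.7 on 2L, and 24.0 and 22.3 on 3R. The clusters themselves were alike in their medians. Median log2 values were 0.59 and 0.61 on 2L and 0.60 and 0.61 on 3R, and median widths lay between 1915 and 1947 bp on all 3 arms. The widest clusters were less alike. In the replicate-set list 15 clusters on 3L (0.94%), 8 on 2L (0.60%) and 5 on 3R (0.33%) spanned 10 kb or more. The shares found in both replicates were 22.3% on 3L, 21.9% on 2L and 20.6% on 3R.

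The X chromosome outside its proximal 4 Mb was covered about as much as 3L in replicate 1 and more than it in replicate 2, and its clusters had higher values. Cover was 7.57% in replicate 1 and 6.93% in replicate 2. The ratio of 3L to X was 1.004 in replicate 1 and 0.91 in replicate 2, on either side of 1. The median log2 value on X was 0.70 and 0.71, about 0.1 above that of 3L in both replicates, and 4.05% of its replicate-set clusters had a value of 1 or more, against 1.94% on 3L. In the portion of each list at or above its own median value, the ratio of 3L to X was 0.59 and 0.48, so among higher-scoring clusters X was the more covered in both replicates.

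The uneven course along the arm was also seen elsewhere. The most and least covered full windows of 3L were at 19.3% and 1.59% in replicate 1 and at 14.1% and 1.70% in replicate 2. On 2L they were at 22.7% and 1.75%, and 15.2% and 1.35%. The first 1 Mb of 3L, at 13.06% and 10.8%, had 1.72 times the cover of its whole stretch in both replicates, that of 2L 2.22 and 2.39 times, that of 3R 1.33 and 1.24 times and that of X 1.16 and 0.95 times. A more covered distal window was thus shared with 2L in larger measure and, in both replicates, with 3R. On X the replicates fell on either side of 1. In the replicate-set list the same ratio was 1.61 on 3L, 1.94 on 2L, 1.05 on 3R and 1.07 on X.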

How the data were processed

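The submitters' processing notes name Bowtie 0.12.7. Lists of clusters, 1 for each ChIP replicate and 1 for the replicate set, were deposited on FlyBase release 5, per the file headers. The authors deposited a value computed for each cluster, read here as log2 enrichment of ChIP over input, though no header names its unit. The log2 scale was inferred because repeated values lie exactly 1 apart. That the value sets ChIP over input was assumed, and the spacing of the values does not show it. Not given in the sources used here are the caller, its thresholds, the scaling of libraries and how the replicate set was formed. The lists hold no counts and no value for input, so depth is unknown.

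Clusters were assigned by their start, and cover was the percent of bases under at least 1 cluster, with unmappable bases kept in the length. Intervals were computed with Python 3.11.15, numpy 2.4.6 and pandas 2.3.3, and the code was tested on simulated data. No test was made, since 2 replicates cannot give an exact two-sided p under 0.5 and clusters are not replicates. Regions named are the 12 highest members found in both replicates, the 5 widest, the highest found in both in each 3 Mb, the 3 highest found in neither, the 3 pairs that differ most, the ends and limit, and depleted regions. The groups, gaps, stretches and other extremes were singled out after their values were seen. The members and lists were chosen with earlier results of these data known. No genome or annotation of release 5 was used, so clusters are given without genes or sequence.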

Additional observations from a re-analysis of the deposited data

How the results depend on the processing

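Of 89 recomputed values, 56 stayed within the spread between replicates, the interval of a share, a tolerance set for the value or 1.5 times a count, and 33 did not. Part of the 56 was fixed in advance. Leaving out a replicate returns the value of the other, which itself sets the spread. A minimum width of 1301 bp left cover and its ratios unchanged, since no replicate cluster was narrower. No ratio on 1 side of 1 in both replicates crossed it. The limit was not moved for any ratio. Cover of the arm (6.94%) was 2.41% with clusters at or above the median value of their list, 16.3% in the replicate-set list, 7.89% with the limit 1 Mb nearer the centromere and 4.08% for bases under both replicates, which was added after the data had been seen. It ranged from 6.28% to 7.60% with either replicate left out. The ratio of the proximal 3 Mb to the arm (6.97) was 17.6, 3.96 and 10.1 under the first, second and last of these and 3.45 by clusters per Mb. For 3L to 2L (1.15) it was 1.19 with higher-scoring clusters and 1.11 in the replicate-set list. For 3L to 3R (1.32) it was 1.25 with higher-scoring clusters, 1.28 by clusters per Mb and 1.37 under both replicates. For 3L to X (0.95) it was 0.54 with higher-scoring clusters, and it crossed 1 when a replicate was left out, at 1.004 without replicate 2 and 0.91 without replicate 1. The share found in both (22.3%) was 16.7% when each replicate had to cover 50% of the member, 18.1% by midpoint, 38.25% among members at or above their median value and 32.1% at 1301 bp or wider. The share found in neither (50.3%) was 53.0%, 41.0% and 31.7% for the 50%, median value and 1301 bp settings. Overlap of the replicates (41.6%) was 31.5% with higher-scoring clusters. The distal ratio (1.78) was 2.30 in 0.5 Mb and 1.61 in 2 Mb (window sizes chosen once values were known). The groups numbered 677 at 5 kb and 231 at 20 kb. Ratios were formed within each replicate and are in that sense paired, and no model with a replicate block was fitted, since 2 pairs cannot give an exact two-sided p under 0.5.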

Other observations

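The following regions were singled out after their values had been seen, and no cause was tested. 3L:21366253-21368170 held the highest value of replicate 2 on the euchromatic arm of 3L, a log2 enrichment of 3.09, and was 99.7% covered by that cluster. Replicate 1 had no cluster there, and the replicate set gave 2.22 over 1918 bp.

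A pair of members found in neither replicate combined a log2 value above 1 with a width above 3 kb. 3L:11607485-11612759 spanned 5.28 kb at a log2 value of 1.05 in the replicate set, and lay next to 3L:11606142-11607210, 1069 bp wide at 1.63 and also found in neither. The other, 3L:2063100-2066724, spanned 3625 bp at 1.15. It belonged to the 8 members found in neither replicate among the 181 above 3 kb and up to 5 kb. Of the 76 members above 5 kb and up to 10 kb, 3L:11607485-11612759 was the 1 found in neither replicate, and 71 were found in both.

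The depleted region of the arm, 3L:15509277-15510731, had a log2 value of -0.015 in the replicate set. An enriched cluster of replicate 1 with a log2 value of 0.18 covered 95.7% of it, and replicate 2 had no cluster there.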
